A study of Mus musculus with 12 samples.

Results

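Hyaluronan is a long glycosaminoglycan that cells spin directly into the matrix around them, and 7 genes of its synthesis, breakdown and recognition were followed here in cultured mouse cardiac fibroblasts. The genes were chosen by name: the synthases Has1, Has2 and Has3, the hyaluronidases Hyal1 and Hyal2, the receptor Cd44, and Tnfaip6, which encodes the hyaluronan cross-linking protein TSG-6. All 7 were present among the 35275 genes of the deposited count table, and all 7 passed the filter on low counts with 15150 genes in all.

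Hyaluronan synthases sit in the plasma membrane and join UDP-glucuronic acid and UDP-N-acetylglucosamine into a chain that is pushed out of the cell as it grows. Hyal2 at the cell surface and Hyal1 in the lysosome cut the polymer into fragments, CD44 binds it and links it to the cytoskeleton through ERM proteins, and TSG-6 transfers heavy chains from inter-α-inhibitor onto it. In injured heart the polymer accumulates in the provisional matrix, where it surrounds fibroblasts that are being activated.

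RNA-Seq of poly(A) RNA covered 4 conditions with 3 libraries each. Fibroblasts came from hearts of 12-week-old mice, given as C57BL/6 in the labels and C57BL/6J in the methods. Smad7 encodes an intracellular inhibitor of TGF-β signalling. The cell type label of all 12 libraries names mice with a floxed Smad7 gene (Smad7 fl/fl). The titles of the control libraries call them wild type. In the paper's methods the deletion is made in cells of Smad7 fl/fl mice, with empty adenovirus as the transfection control. The legend of its PCR array on such cells also gives the control fibroblasts as Smad7 fl/fl. At passage 2 the cells were infected for 48 hours at a multiplicity of 100 with an adenovirus that expresses Cre (Smad7-KO) or with a control adenovirus, which the methods call empty and the labels describe as carrying green fluorescent protein. Cells then stayed unstimulated or received TGF-β1 at 10 ng/ml, for 4 hours by one label field and 2 hours by another, and control and Smad7-KO cells are called unstimulated or TGF-β1 accordingly. Each comparison below uses 2 of these conditions, and comparisons that share a condition share its libraries.

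Libraries held 19056900 to 25371300 counts, to 6 digits. Smad7 itself, which checks the labels, was at 71.4 to 77.2 CPM (a count relative to the normalized library total) in unstimulated control, 142 to 150 in control with TGF-β1, 28.4 to 31.1 in Smad7-KO without stimulation and 70.0 to 80.8 with it, so that it was lower in every Smad7-KO library than in every control library given the same stimulus. Unstimulated control libraries varied most among themselves, with a biological coefficient of variation of 0.334 against 0.053 to 0.137 in the other conditions. Across genes, the difference of a library from the mean of all libraries followed gene length, with a Spearman correlation of −0.404, −0.536 and 0.296 in unstimulated control libraries 1, 2 and 3, 0.201, −0.372 and −0.169 in TGF-β1 control, and 0.0715 to 0.383 in the Smad7-KO libraries. Markers of other cells were present. The 10 measured macrophage markers summed to 15926 to 25621 CPM in unstimulated control and 22814 to 25050 in unstimulated Smad7-KO, and to 15899 to 18528 and 22003 to 25022 with TGF-β1, with 6 and 5 of 10 higher in Smad7-KO and none lower. Endothelial markers summed to 283 to 337 and 299 to 347 CPM in control and to 48.6 to 58.2 and 46.1 to 47.4 in Smad7-KO, with 6 of 9 lower in each comparison and 1 higher. Mesothelial markers summed to 252 to 286 and 239 to 262 CPM in control and to 150.1 to 177 and 145 to 160 in Smad7-KO without and with TGF-β1, with 4 and 2 of 5 lower and none higher. Smooth muscle and pericyte markers summed to 20.7 to 23.1 and 28.6 to 29.6 CPM in control and to 10.2 to 14.6 and 15.2 to 17.9 in Smad7-KO, with 2 and 1 of 5 lower and none higher. The 10 fibroblast markers summed to 7425 to 11496 CPM in unstimulated control and 8662 to 10198 in the other conditions, with 2 of 10 higher and 2 lower on Smad7 loss with or without TGF-β1. Lum, which encodes a collagen-binding proteoglycan and is among them, was at 10 to 43 counts. In bulk RNA, fewer cells of a type and less RNA per cell cannot be told apart.

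These genes differed widely in level. FPKM, which divides a count by gene length and by the total of its library, averaged 29.1 for Cd44 over the 12 libraries, 10.8 for Hyal2, 3.39 for Tnfaip6, 2.44 for Hyal1, 0.370 for Has2, 0.349 for Has1 and 0.216 for Has3. Cd44 (19.2 to 36.2 FPKM) lay above Hyal2 (9.02 to 13.7) in every library, and Hyal2 above the rest. Tnfaip6 (1.99 to 4.48) and Hyal1 (1.31 to 4.01) overlapped, as did all synthases with each other. The synthases were rare transcripts: a library held 10 to 82 counts of Has2, 4 to 39 of Has1 and 6 to 44 of Has3.

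**Figure D1:**
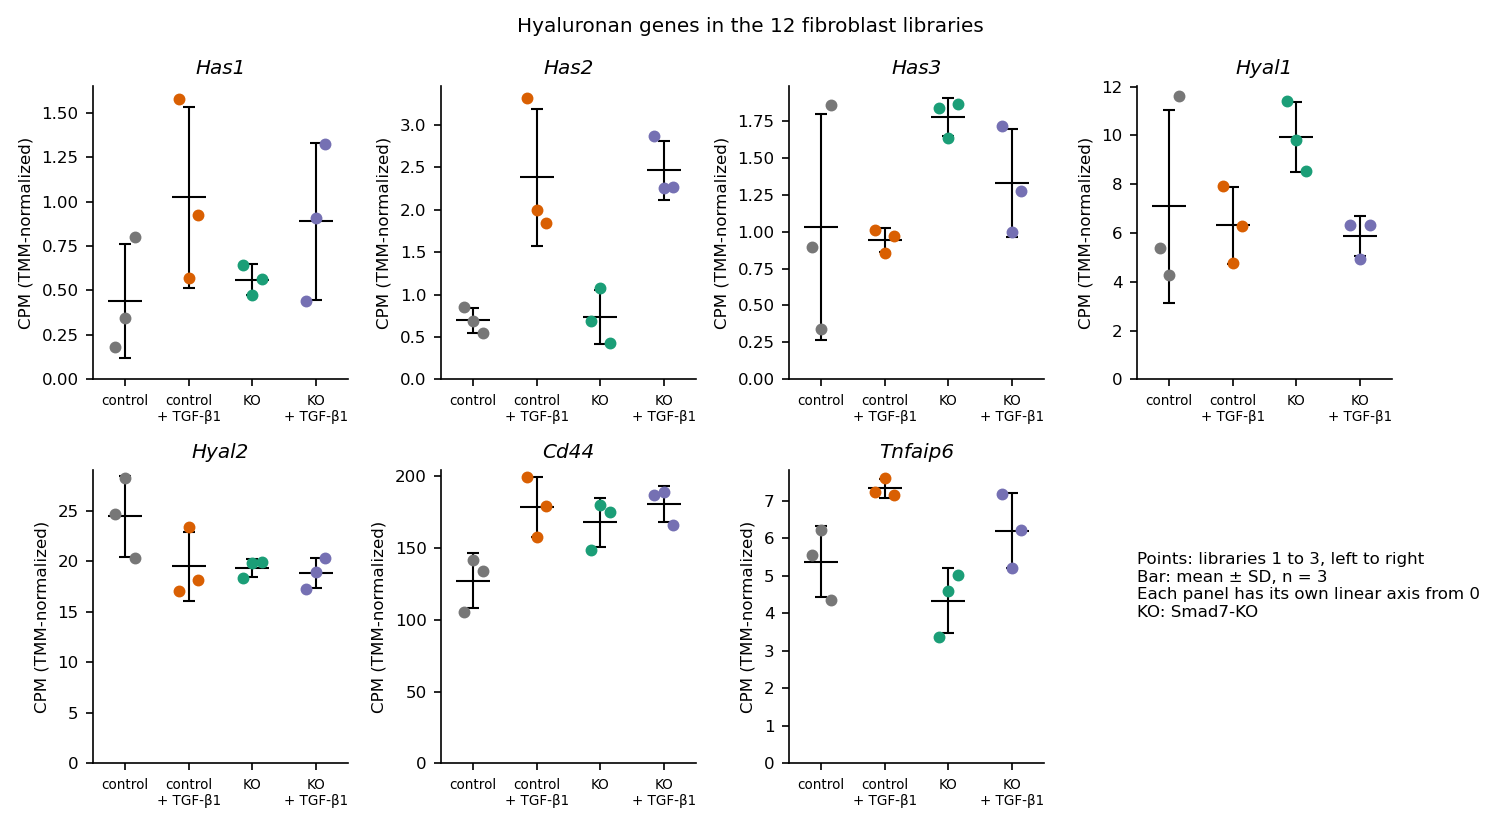
Each panel plots 1 gene as CPM (linear axis from 0, normalized by TMM) in the 4 conditions, with a point for each library and the mean ± SD of 3 libraries as a bar. Has2 separates stimulated (1.85 to 3.32 CPM) from unstimulated libraries (0.434 to 1.07 CPM), and in the Has1, Has3 and Hyal1 panels the unstimulated control libraries are far apart.

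Positions are those of the deposited table in the mouse build GRCm38. Has1 lies at chr17:17843328-17855188 and Has2 at chr15:56665627-56694539 on the minus strand, and Has3 at chr8:106870242-106884566 on the plus strand. Hyal2 (chr9:107569117-107572776) and Hyal1 (chr9:107576927-107581710) are neighbours on the plus strand, Cd44 lies at chr2:102811141-102901665 on the minus strand and Tnfaip6 at chr2:52038009-52056686 on the plus strand. All are protein-coding. In the GENCODE M21 annotation, 1920 exonic bases of Hyal1, 50.8% of its exonic bases, also belong to exons of Naa80 on the same strand and 159 to Hyal3. Has2 shares 182 exonic bases with its antisense RNA Has2os on the opposite strand, and Has3 shares 352 with Chtf8. The library kit does not mark strand and the counting setting is not given in the sources used here, so reads over these bases are uncertain. The longest transcripts of the synthases shared no run longer than 23 bases (Has2 and Has3), and those of Hyal1 and Hyal2 none longer than 14, so no 50-base stretch was common to any pair.

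RefSeq promoters were matched for 5 of the 7 genes, and no sequence is shown for Has2 and Has3. The promoters below belong to Has1, Cd44 and Tnfaip6, the genes besides Has2 with the highest log2 fold changes under TGF-β1 in control cells. They show the bases before both the RefSeq start and the start in the deposited table, on the gene's strand and 5′ to 3′, with the 5-base Smad-binding element CAGAC or its reverse complement GTCTG in capitals.
Has1 (GRCm38.p6, chr17:17855189-17855438, minus strand): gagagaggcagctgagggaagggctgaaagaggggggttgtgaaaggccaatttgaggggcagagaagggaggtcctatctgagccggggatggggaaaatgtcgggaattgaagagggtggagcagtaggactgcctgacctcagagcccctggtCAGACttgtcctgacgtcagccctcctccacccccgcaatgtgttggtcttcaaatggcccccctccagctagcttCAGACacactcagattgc
Cd44 (GRCm38.p6, chr2:102901666-102901915, minus strand): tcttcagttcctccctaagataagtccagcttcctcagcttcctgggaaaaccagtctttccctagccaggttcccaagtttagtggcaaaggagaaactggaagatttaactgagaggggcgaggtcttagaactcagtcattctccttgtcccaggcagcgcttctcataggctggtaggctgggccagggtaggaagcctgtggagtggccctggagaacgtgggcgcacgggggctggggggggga
Tnfaip6 (GRCm38.p6, chr2:52037863-52038008, plus strand): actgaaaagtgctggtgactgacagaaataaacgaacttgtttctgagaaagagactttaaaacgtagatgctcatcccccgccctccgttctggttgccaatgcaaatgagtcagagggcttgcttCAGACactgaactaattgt

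Searched on both strands in the 250 bases before the RefSeq start, CAGAC occurred 2 times in Has1 and once each in Hyal1 and Tnfaip6, and not in Hyal2 or Cd44. Of 32851 RefSeq promoters of the same length, 42.2% held it. The AP-1 letters TGANTCA occurred once, in Tnfaip6, and in 6.75% of all promoters. The cyclic AMP response element TGACGTCA occurred once, in Has1, and in 1.55% of all promoters. The 3 motifs did not overlap in these windows. These are matches of letters, not sites shown to be bound.

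Counted over the 7 genes, TGF-β1 in control raised 2 (Has2 and Cd44) and lowered 0. Of all tested genes 8.37% changed there, 5.04% upwards and 3.33% downwards, by the same threshold of an adjusted p of 0.05. In Smad7-KO cells TGF-β1 raised 1 (Has2) and lowered 0, where 10.2% changed, 5.33% upwards and 4.9% downwards. Smad7 loss in unstimulated cells raised 1 (Cd44) and lowered 0, where 25.8% changed, 12.1% upwards and 13.7% downwards. In stimulated cells 0 of 7 passed by edgeR, where 13.0% of all genes did, 5.72% upwards and 7.23% downwards. There 0 of the 7 had an unadjusted p under 0.05, and DESeq2 and limma also called 0. The interaction called 0 of 7 by edgeR (0.0198% of all genes) with 0 at an unadjusted p under 0.05, and 0 by DESeq2 and limma, though limma left 1 gene at an unadjusted p under 0.05. The numbers of the 7 genes whose libraries did not overlap were 3, 3, 2 and 0 in the 4 comparisons, against 19.8%, 39.0%, 41.3% and 44.9% of all genes. Median log2 fold changes of the 7 were 0.45, 0.11, 0.31 and −0.05, against −0.03, −0.01, −0.02 and −0.02 over all tested genes.

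TGF-β1 raised Has2, the synthase that fibroblasts are best known for, in control and in Smad7-KO cells. In unstimulated control libraries Has2 was at 19, 12 and 13 counts (0.852, 0.686 and 0.548 CPM), and in TGF-β1 control libraries at 82, 49 and 38 counts (3.32, 1.99 and 1.85 CPM). The lowest stimulated library was above the highest unstimulated one. The change was 3.43-fold, a log2 fold change of 1.78 ± 0.35 (SE; adjusted p = 0.00797 by edgeR's quasi-likelihood test). In Smad7-KO cells counts were 14, 25 and 10 without stimulation (0.694, 1.07 and 0.434 CPM) and 72, 50 and 48 with it (2.87, 2.26 and 2.27 CPM). Again the libraries did not overlap, and the change was 3.34-fold (log2 1.74 ± 0.35, adjusted p = 0.0072 by edgeR). Smad7 loss left the means of Has2 close, at 0.695 CPM in control and 0.734 in Smad7-KO without stimulation and at 2.39 and 2.47 CPM with it. The 95% interval of the log2 fold change on Smad7 loss ran from −0.76 to 0.93 in unstimulated and from −0.64 to 0.74 in stimulated cells. The TGF-β1 effects in the 2 genotypes differed by −0.04 (95% interval −1.12 to 1.05), which at these counts leaves a difference of up to about 2-fold either way undetected. Leaving out each library kept both TGF-β1 calls, with log2 fold changes of 1.46 to 1.96 in control and 1.47 to 2.13 in Smad7-KO. The call in control was lost in 1 of 21 other fits, with only the 6 libraries of the comparison (1.77, adjusted p = 0.0566 by edgeR; range over all other fits 0.000108 to 0.0566).

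Has2os, the antisense RNA of the Has2 locus, was too rare to test. It was at 5, 0 and 1 counts in unstimulated control, 8, 5 and 4 in control with TGF-β1, 2, 3 and 6 in Smad7-KO without stimulation and 16, 3 and 2 with it. Its libraries overlapped between unstimulated and stimulated cells in Smad7-KO, and in control the lowest stimulated library was 1 count below the highest unstimulated one.

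Has1 makes hyaluronan at a lower rate than Has2, and its counts were scattered. They were 4, 6 and 19 in unstimulated control, 39, 14 and 19 in control with TGF-β1, 13, 11 and 13 in Smad7-KO without stimulation and 11, 20 and 28 with it. The mean was higher with TGF-β1 in both genotypes (1.02 against 0.441 CPM in control, 0.888 against 0.560 CPM in Smad7-KO), but the libraries overlapped each time. The log2 fold changes of 1.18 ± 0.57 (adjusted p = 0.278 by edgeR) and 0.65 ± 0.56 (adjusted p = 0.652) did not pass. Without unstimulated control library 3, the highest of its condition, the first was 1.99 with an adjusted p of 0.0454 by edgeR. It passed in this 1 of 21 other fits only, and calls over all genes went from 1268 to 3449 there.

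Has3, which tends to make shorter chains, had log2 fold changes of −0.16 ± 0.45 and −0.41 ± 0.42 with TGF-β1 in control and in Smad7-KO, neither of which passed. Its counts were 20, 6 and 44 in unstimulated control, 25, 21 and 20 in control with TGF-β1, 37, 38 and 43 in Smad7-KO without stimulation and 43, 22 and 27 with it. The unstimulated control libraries ran from 0.343 to 1.86 CPM, and all other libraries lay between 0.854 and 1.87 CPM. On Smad7 loss the log2 fold change was 0.74 ± 0.43 in unstimulated cells (adjusted p = 0.200 by edgeR). Without unstimulated control library 3 it was 1.47 with an adjusted p of 0.00906, and it passed in this 1 of 21 other fits only. The length correlation was 0.296 in that library, −0.404 and −0.536 in libraries 1 and 2, and 0.253 to 0.332 in unstimulated Smad7-KO. Leaving it out took the calls over all genes on Smad7 loss from 3907 to 7979.

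Set side by side per length, Has2 made up 34.6% ± 16.5 (SD, n = 3) of the summed FPKM of the synthases in unstimulated control, 46.9% ± 5.67 in control with TGF-β1, 23.1% ± 9.52 in Smad7-KO without stimulation and 47.8% ± 9.46 with it. The share of Has2 was 24.6 percentage points higher with TGF-β1 in Smad7-KO cells, without overlap between the libraries, and 12.3 points higher in control cells, with overlap. The share of Has3 was 18.4% with and 40.7% without TGF-β1 in Smad7-KO, and 14.0% and 29.2% in control. With 3 libraries against 3 the two-sided exact permutation test cannot go below p = 0.1, which the Has2 and Has3 shares reached in Smad7-KO cells. In control cells the exact p was 0.5 for Has2 and 0.3 for Has3, over 12 such comparisons (3 synthases in 4 contrasts). FPKM shares depend on the length used, which for Has1 was 2090 bases, beside 4518 exonic bases in GENCODE M21. By summed CPM, Has3 had the largest share in unstimulated control (43.1%) and unstimulated Smad7-KO (58.1%). By the same unit Has2 had the largest share with TGF-β1, at 54.6% in control and 52.7% in Smad7-KO.

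**Figure D2:**
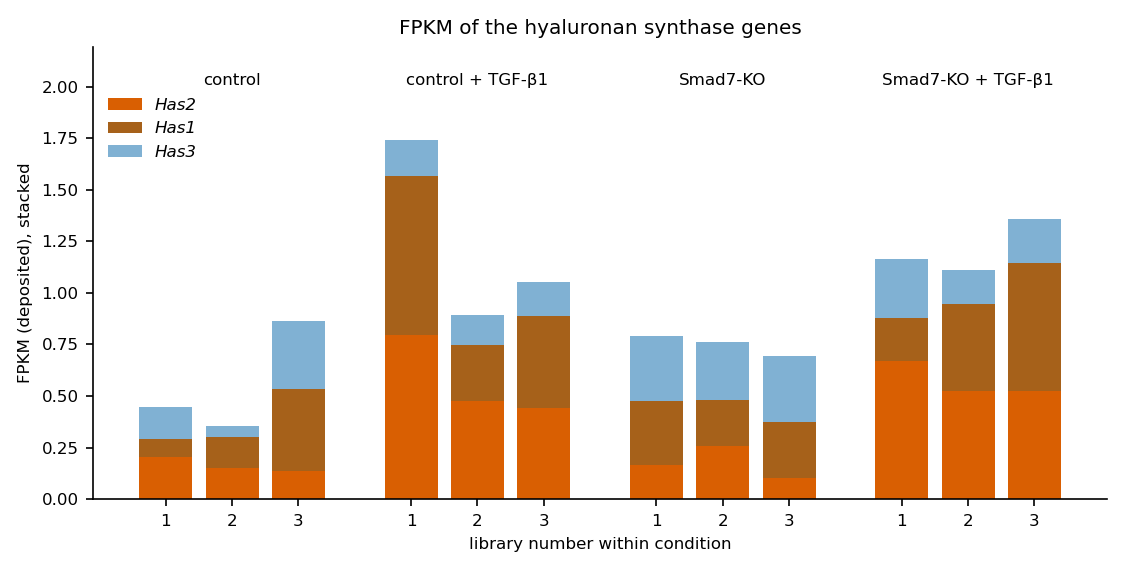
Bars stack the deposited FPKM (linear axis from 0) of Has2, Has1 and Has3 in each of the 12 libraries, grouped by condition. The Has2 segment is 0.441 to 0.797 FPKM in stimulated libraries and 0.103 to 0.255 FPKM in unstimulated ones, and the sum in unstimulated control library 3 is well above that in libraries 1 and 2.

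The hyaluronidases did not pass the test in any comparison. Hyal1, the lysosomal enzyme, was at 5.38, 4.29 and 11.6 CPM in unstimulated control, 7.93, 4.76 and 6.27 in control with TGF-β1, 11.4, 9.83 and 8.55 in Smad7-KO without stimulation and 6.34, 4.93 and 6.32 with it. In Smad7-KO cells every stimulated library was below every unstimulated one, but the log2 fold change of −0.76 ± 0.32 had an adjusted p of 0.209 by edgeR (unadjusted 0.0384). With only the 6 libraries of that comparison the value was −0.74 with an adjusted p of 0.00175. In control cells TGF-β1 gave −0.18 ± 0.32, and the libraries overlapped. The 2 TGF-β1 effects differed by −0.58 ± 0.46 (adjusted p = 0.980 by edgeR). Without unstimulated control library 3, Smad7 loss in unstimulated cells gave 1.03 for Hyal1 with an adjusted p of 0.00364 by edgeR, against 0.47 ± 0.32 with it. It passed in this 1 of 23 other fits only, where the remaining unstimulated control libraries had length correlations of −0.404 and −0.536. In the alternatives that kept library 3 the value was 0.21 to 0.61.

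Hyal2, the surface enzyme that opens degradation of the long polymer, was the steadier of the pair. It was at 24.7, 28.3 and 20.3 CPM in unstimulated control, 17.0, 23.4 and 18.1 in control with TGF-β1, 18.3, 19.9 and 19.9 in Smad7-KO without stimulation and 17.3, 18.96 and 20.3 with it. Unstimulated control had the highest mean, and its libraries stood just above those of unstimulated Smad7-KO, with 20.3 against 19.9 CPM at the boundary. The log2 fold change there was −0.33 ± 0.15 (adjusted p = 0.111 by edgeR, unadjusted 0.0483), and TGF-β1 in control gave −0.32 ± 0.15 (adjusted p = 0.260). Both passed when unstimulated control library 3 was left out, at −0.45 (adjusted p = 0.0219) and −0.44 (adjusted p = 0.0488). Each passed in this 1 of 23 other fits only, where the remaining unstimulated control libraries had length correlations of −0.404 and −0.536. In the alternatives that kept library 3, Smad7 loss gave −0.34 to −0.11 and TGF-β1 in control −0.35 to −0.27.

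Cd44, the main surface receptor of hyaluronan, was lowest in unstimulated control. It was at 105, 142 and 134 CPM there, at 199, 158 and 179 in control with TGF-β1, at 149, 180 and 175 in Smad7-KO without stimulation and at 187, 189 and 166 with it. Every library of the other conditions was above the 3 unstimulated control libraries, and those other conditions overlapped each other. TGF-β1 in control raised Cd44 1.41-fold (log2 0.49 ± 0.14, adjusted p = 0.0460 by edgeR). Smad7 loss in unstimulated cells raised it 1.32-fold (log2 0.40 ± 0.14, adjusted p = 0.0488). TGF-β1 in Smad7-KO cells gave 0.11 ± 0.14 (adjusted p = 0.807), Smad7 loss in stimulated cells 0.02 ± 0.14 (adjusted p = 0.948), and the interaction −0.39 ± 0.19 (adjusted p = 0.980 by edgeR, unadjusted 0.0674), so a difference between the TGF-β1 effects in the genotypes was not shown.

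The Cd44 calls were close to the threshold, and both rest on the same 3 unstimulated control libraries. Each held in 7 of 23 other fits, with adjusted p from 0.00776 to 0.329 for TGF-β1 in control and from 0.0168 to 0.801 for Smad7 loss. Of the fits without 1 library, both calls held only without unstimulated control library 2, unstimulated control library 3 or TGF-β1 control library 2. They were lost without unstimulated control library 1, TGF-β1 control libraries 1 and 3 and every Smad7-KO library, with values of 0.38 to 0.49 and of 0.30 to 0.49. Unstimulated control library 2 and TGF-β1 control library 2 had the lowest length correlations of their conditions, and without both the values were 0.66 (adjusted p = 0.00776) and 0.48 (adjusted p = 0.0168). When each library's trend on gene length was removed, TGF-β1 in control gave 0.30 (adjusted p = 0.329) and Smad7 loss 0.06 (adjusted p = 0.801). Macrophages also carry CD44, and their markers moved with Smad7 loss as given above; their part in the Cd44 values was not tested.

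**Figure D3:**
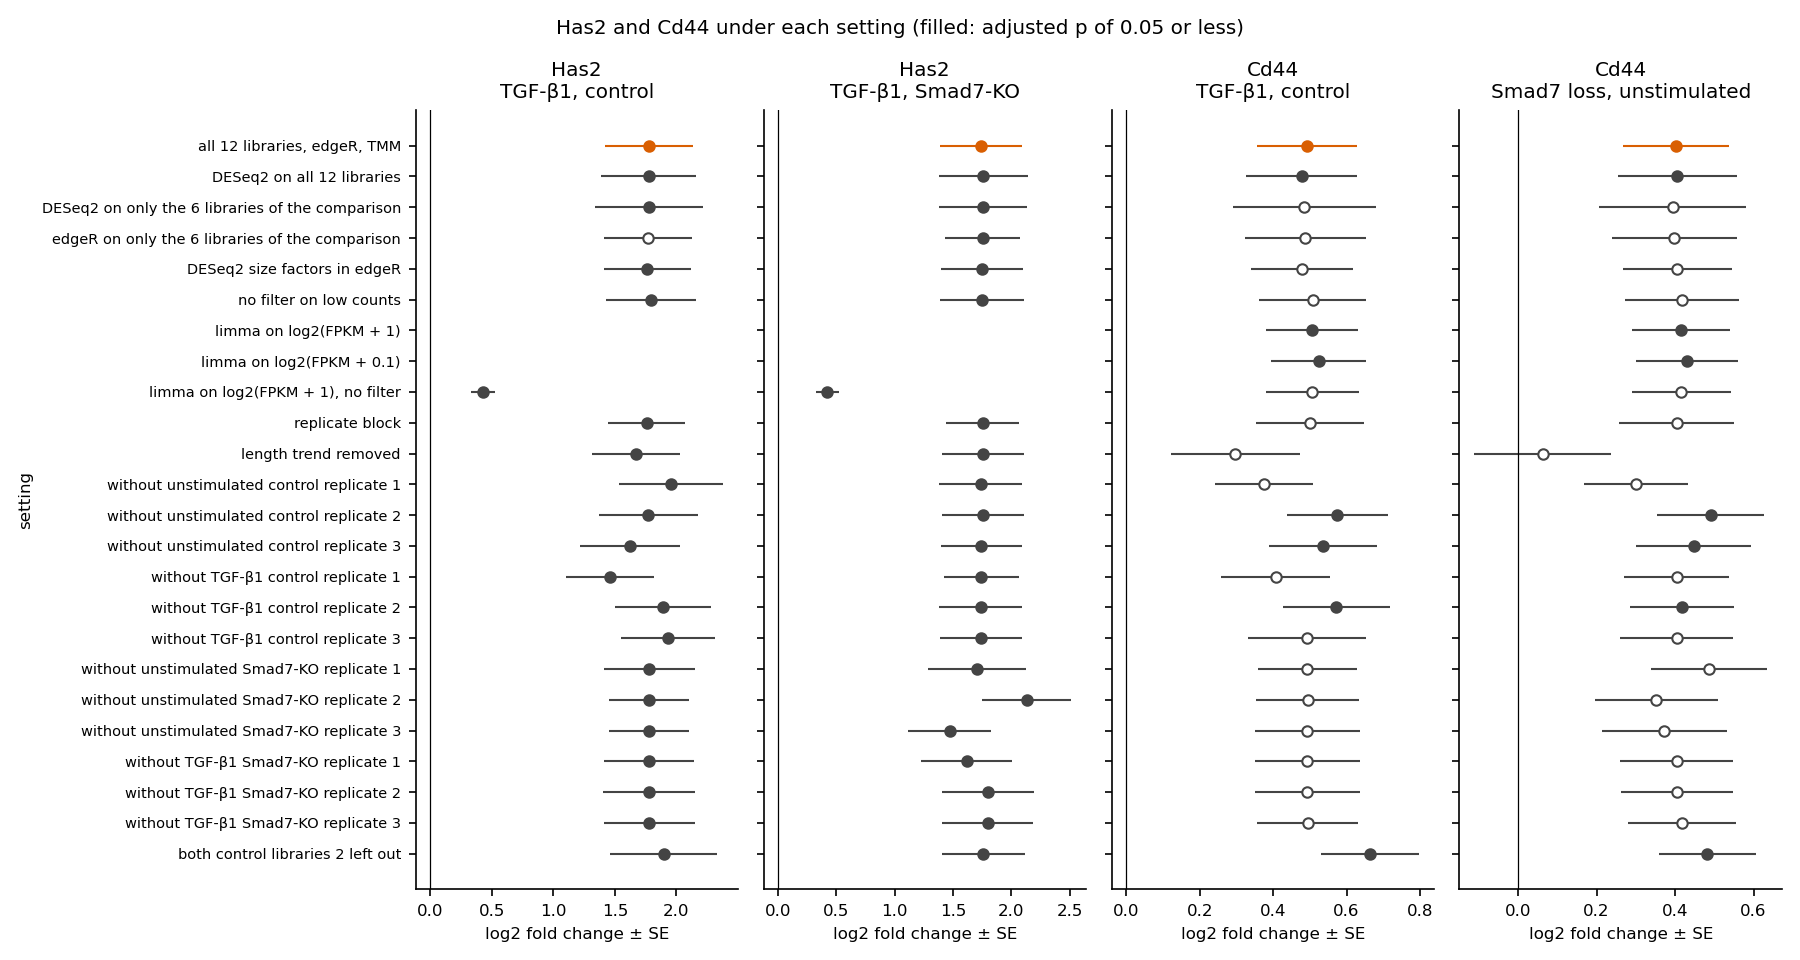
Points are log2 fold changes ± SE (horizontal axes, one scale per panel) of Has2 and Cd44 under each setting (vertical axis), orange for the fit reported here and filled where the adjusted p was 0.05 or less. Has2 stays filled in all but the edgeR fit on 6 libraries in control, its value on log2(FPKM + 1) being compressed by the added 1, whereas most Cd44 points are open and the value on Smad7 loss is 0.06 with the length trend removed.

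Tnfaip6 was higher with TGF-β1 in both genotypes without passing the test. It was at 5.56, 6.23 and 4.34 CPM in unstimulated control, 7.24, 7.61 and 7.14 in control with TGF-β1, 3.37, 4.59 and 5.03 in Smad7-KO without stimulation and 7.18, 5.20 and 6.23 with it. Every stimulated library was above every unstimulated library of its genotype. The changes were 1.37-fold (log2 0.45 ± 0.19, adjusted p = 0.206 by edgeR, unadjusted 0.0370) and 1.43-fold (log2 0.52 ± 0.19, adjusted p = 0.139, unadjusted 0.0211). The first passed with the length trend removed (0.53, adjusted p = 0.0498) and the second with only the 6 libraries of its comparison (0.53, adjusted p = 0.0470). Smad7 loss gave −0.30 ± 0.20 and −0.24 ± 0.19 without and with TGF-β1, with overlap each time.

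**Figure D4:**
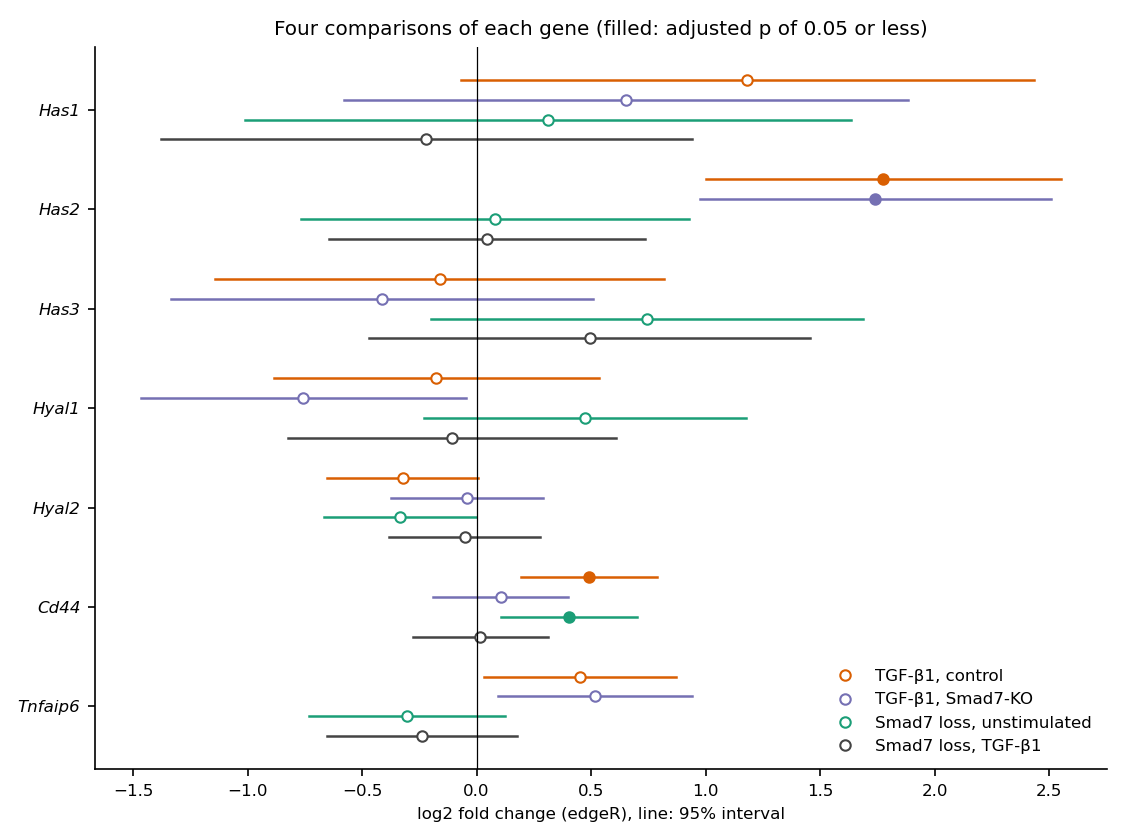
Points are edgeR log2 fold changes (horizontal axis) of each gene in 4 comparisons, lines are 95% intervals, and filled points had an adjusted p of 0.05 or less. Filled are Has2 under TGF-β1 in both genotypes (1.78 and 1.74) and Cd44 under TGF-β1 in control (0.49) and on Smad7 loss without stimulation (0.40), and all intervals of Smad7 loss in stimulated cells (black) include 0.

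The genes whose libraries ran most like each of the 7 were found among 12203 genes by the root mean square difference of centred log2 CPM over the 12 libraries. For Has2 these were RP24-217M7.2, a processed transcript (0.30), Tmeff1 (0.31) and Vhl, the substrate receptor of the ubiquitin ligase that degrades hypoxia-inducible factors (0.33), beside a spread of Has2 itself of 0.89. For Has1 they were Nebl (0.40), Nhs (0.43) and Robo1 (0.45) against its own 0.70. For Has3 they were Atf7 (0.21), Ap4e1 (0.22) and Klf3 (0.23) against 0.61. For Hyal1 they were Gm14420 (0.19), Rab11fip1 (0.20) and Itsn1 (0.21) against 0.46, and for Hyal2 Lyrm2 (0.07), the growth factor feedback inhibitor Spry2 (0.08) and Rpap2 (0.09) against 0.21. For Cd44 they were Zbtb44 (0.11), N4bp2l2 (0.12) and Noc3l (0.12) against 0.25, and for Tnfaip6 Rcl1 (0.15), Vapa (0.15) and the channel gene Panx1 (0.15) against 0.34. These likenesses are descriptions and carry no test.

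The wider hyaluronan pathway was read from a list of 52 further genes, all present in the table, of which 37 passed the filter. Under TGF-β1 4 of the 37 rose and 0 fell in control, where 5.04% of all tested genes rose and 3.33% fell, and 4 rose and 2 fell in Smad7-KO, where 5.33% rose and 4.9% fell. On Smad7 loss 7 rose and 7 fell in unstimulated cells, where 12.1% of all genes rose and 13.7% fell, and 6 rose and 3 fell in stimulated cells, where 5.72% rose and 7.23% fell. The interaction called 0 of 37 by edgeR, with 1 at an unadjusted p under 0.05. Medians of the 37 were 0.04, 0.08, 0.16 and 0.02, beside the medians of all genes given above. The 15 genes that were not tested held 2 to 79 counts over all 12 libraries, among them Lyve1, the lymphatic hyaluronan receptor (79), the link protein gene Hapln1 (15) and the sperm hyaluronidase gene Spam1 (2).

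Of the 10 enzymes that supply the UDP-sugar precursors, 1 rose with TGF-β1 in each genotype, namely Gfpt2. Among all tested genes 5.04% rose in control and 5.33% in Smad7-KO. Gfpt2 encodes a form of the enzyme that commits fructose 6-phosphate to the hexosamine route. Its mean went from 65.0 to 157 CPM in control (log2 1.28 ± 0.10, adjusted p = 1.4e-05 by edgeR) and from 83.9 to 156 CPM in Smad7-KO (0.89 ± 0.10, adjusted p = 0.000138), without overlap. Gfpt2 also rose on Smad7 loss in unstimulated cells (0.37 ± 0.10, adjusted p = 0.0248). Uap1, which makes UDP-N-acetylglucosamine, fell on Smad7 loss without (−0.52 ± 0.11, adjusted p = 0.00861) and with TGF-β1 (−0.44 ± 0.11, adjusted p = 0.0246). Ugdh, which makes UDP-glucuronic acid, fell in stimulated cells (−0.35 ± 0.10, adjusted p = 0.0367) and in unstimulated cells (−0.43 ± 0.10, adjusted p = 0.0120), where Ugp2 fell too. Endothelial, mesothelial, and smooth muscle and pericyte markers were also lower in Smad7-KO by the values given above, and their part in these falls was not tested.

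Among the tested genes of depolymerisation and lysosomal degradation, Gusb, the lysosomal β-glucuronidase, rose on Smad7 loss in unstimulated and in stimulated cells. Hexa, which encodes a subunit of a lysosomal hexosaminidase, rose on Smad7 loss in stimulated cells (0.51 ± 0.14, adjusted p = 0.0329 by edgeR). Macrophage markers were also higher in Smad7-KO by the values given above, and their part in the Gusb and Hexa values was not tested.

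The receptors moved in different directions. Tlr2, which senses hyaluronan fragments, rose with TGF-β1 in control (0.80 ± 0.10, adjusted p = 0.000326 by edgeR) and in Smad7-KO (0.96 ± 0.10, adjusted p = 7.14e-05). Tlr4 fell with TGF-β1 in Smad7-KO (−1.05 ± 0.26, adjusted p = 0.0246), as did Stab2, a scavenger receptor that clears hyaluronan (−0.86 ± 0.23, adjusted p = 0.0382). On Smad7 loss in unstimulated cells 3 of 6 receptors rose, where 12.1% of all genes did. These were Stab1 (1.09 ± 0.27, adjusted p = 0.0171), Tlr4 (1.00 ± 0.26, adjusted p = 0.0209) and Stab2. In stimulated cells 3 of 6 rose, where 5.72% of all genes did, namely Stab1 (1.02 ± 0.27, adjusted p = 0.0301), Stab2 (0.83 ± 0.25, adjusted p = 0.0496) and Tlr2. Stab1 averaged 1039 CPM in unstimulated control and 2212 in unstimulated Smad7-KO. In unstimulated control libraries 1, 2 and 3 Stab1 was at 1038, 584 and 1495 CPM and Tlr4 at 35.4, 25.4 and 58.6. Both were lowest in library 2 and highest in library 3, as was the length correlation. Stab2 (2.64, 2.97 and 2.74 CPM) did not follow that order. No fit with the length trend removed is reported here for these receptors. Stabilins and Toll-like receptors are also carried by macrophages, whose markers were higher in Smad7-KO by the values given above, and their part in these values was not tested.

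None of the 9 tested hyaluronan-binding matrix genes passed with TGF-β1 by edgeR, where 8.37% of all tested genes passed in control and 10.2% in Smad7-KO. On Smad7 loss Itih2, which encodes a heavy chain that TSG-6 can move onto hyaluronan, fell from 7.68 to 2.33 CPM in unstimulated cells (log2 −1.72 ± 0.17, adjusted p = 0.000113) and from 7.58 to 1.92 CPM in stimulated cells (−1.98 ± 0.17, adjusted p = 4.79e-05). The part of the lower endothelial, mesothelial, and smooth muscle and pericyte markers in the Itih2 values was not tested. In unstimulated cells Vcan, the gene of the large proteoglycan versican, rose (0.93 ± 0.27, adjusted p = 0.0300), and Bcan (−1.13 ± 0.37, adjusted p = 0.0461), C1qbp (−0.62 ± 0.21, adjusted p = 0.0493) and Habp4 fell, with overlap between the libraries for C1qbp. Of 6 partners and sheddases of CD44, Adam10, a protease that sheds CD44, rose with TGF-β1 in control (0.57 ± 0.15, adjusted p = 0.0317) and in Smad7-KO (0.59 ± 0.15, adjusted p = 0.0235). Among all tested genes 5.04% and 5.33% rose in these comparisons. Adam10 was at 137, 124 and 187 CPM in unstimulated control libraries 1, 2 and 3 and at 243, 197 and 226 in TGF-β1 control. Both follow the order of the length correlations, and no fit with the length trend removed is reported here for Adam10. Spp1, the gene of the CD44 ligand osteopontin and also a macrophage product, rose on Smad7 loss in unstimulated (0.91 ± 0.26, adjusted p = 0.0292) and stimulated cells (0.90 ± 0.26, adjusted p = 0.0425), with overlap between the libraries in unstimulated cells. The part of macrophages in the Spp1 values was not tested.

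**Figure D5:**
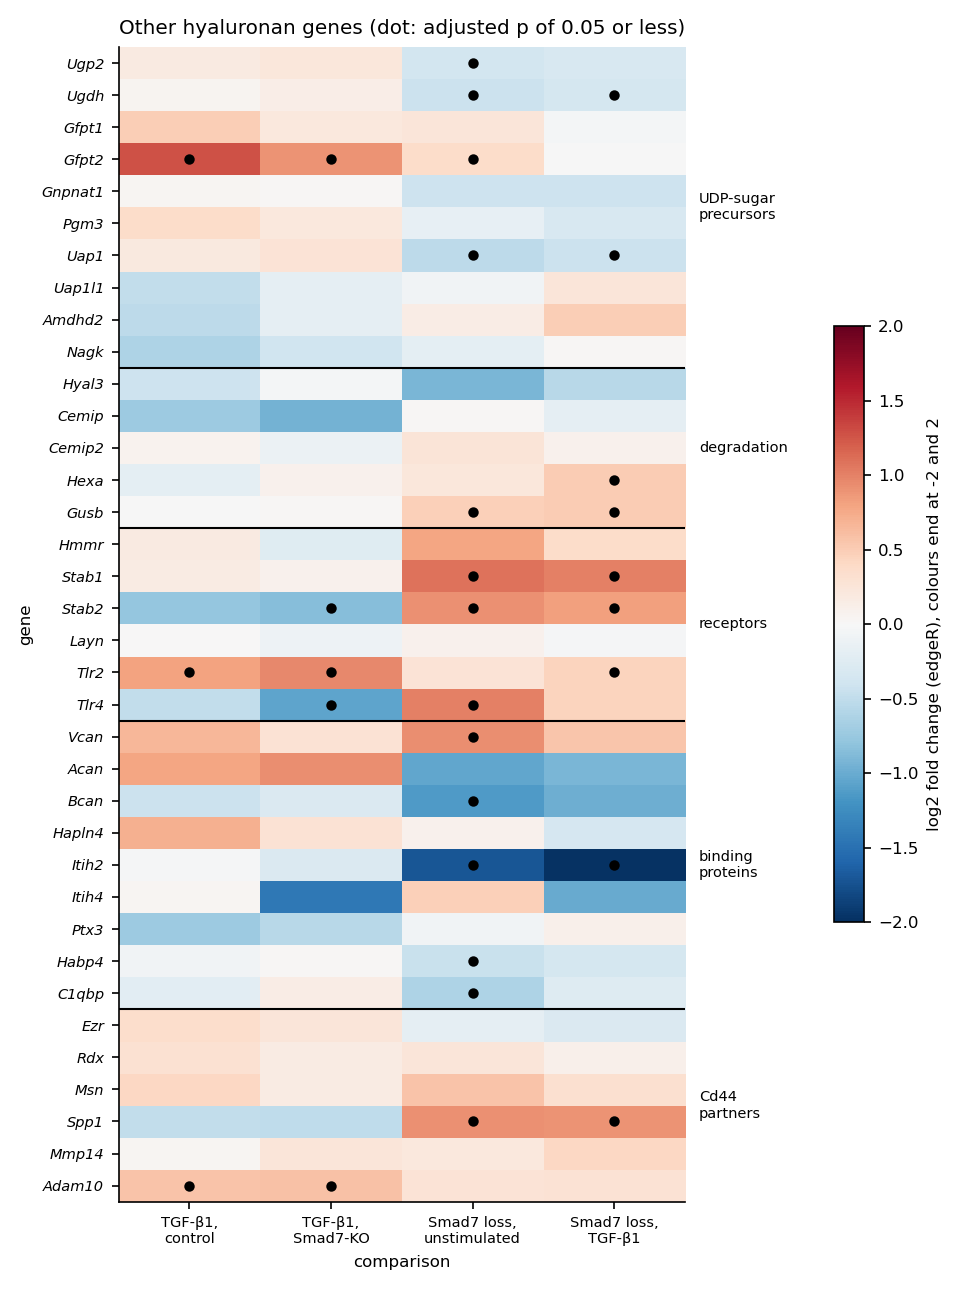
Colours show the edgeR log2 fold change of the tested further hyaluronan genes (rows, grouped by role, without 1 that is not reported) in 4 comparisons (columns), ending at −2 and 2, and dots mark an adjusted p of 0.05 or less. Gfpt2, Tlr2 and Adam10 carry dots under TGF-β1 in both genotypes, and the dots on Smad7 loss fall on other genes for the most part, led by Itih2 downwards (−1.72 and −1.98) and Stab1 upwards (1.09 and 1.02).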

How the data were processed

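RNA-Seq covered 12 libraries in 4 conditions. The authors deposited raw read counts per gene and FPKM values. The submitters' processing notes name TopHat2 2.0, Cufflinks 2.1.1, HTSeq 0.6.1 and CASAVA, and the builds mm10 and GRCm38.p6. The deposited FPKM equalled count divided by length and library total in all 35275 genes (tolerance 0.001). Libraries were assigned by their titles, and no per-sample column was left out.

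Counts were fitted with edgeR 4.0.16 (R 4.3.3) on all 12 libraries: filterByExpr at a minimum count of 10, TMM, robust quasi-likelihood. Benjamini-Hochberg adjusted p was taken over all 15150 tested genes, with 0.05 as the threshold. SEs came from the coefficient and its F statistic. p values set a difference between conditions against the spread between libraries of the same condition. The paper's methods give 3 replicates per condition without saying whether these were separate mice or separate cultures. Procedures were tested on simulated counts with planted changes. For Smad7 loss edgeR recovered 56% of 2-fold and 82% of 4-fold changes, and for the interaction 21% and 79%. Of the calls for Smad7 loss on simulated counts, 5.48% were false with edgeR, 19.8% with DESeq2 and 5.11% with limma on log2(FPKM + 1). The simulation gave each gene the same dispersion in all conditions and no length trend. In the data the biological coefficient of variation was 0.334 in unstimulated control and 0.053 to 0.137 elsewhere, and length trends were present. These rates therefore cannot be taken as those of the calls reported here. Alternatives were DESeq2 1.42.0, edgeR on 6 libraries, DESeq2's size factors, no filter, limma 3.58.1 on log2(FPKM + 1) or log2(FPKM + 0.1) with or without a minimum FPKM of 1 in at least 3 libraries, the replicate number as a block, removal of each library's length trend by loess (span 0.3), and leaving out each library. Leaving out library 2 of both control conditions was chosen after seeing the data.

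The 7 genes, the lists and the tests were chosen with earlier results of these data known. The text names the 7 genes, Smad7, up to 4 further hyaluronan genes per direction and comparison by size of change, and 3 most similar genes (average log2 CPM of at least 1, prior count 2) for each. Any other name was picked with its values already in view. The values of 1 further hyaluronan gene, which stays in the counts and medians of the list, are not reported here. Among marker lists not given in the report, cardiomyocyte markers summed to 28.1 to 77.5 CPM in control and 17.7 to 23.6 in Smad7-KO, with Nppa at 3 counts or fewer and 2 of 3 tested lower on Smad7 loss in unstimulated cells and 0 in stimulated cells, and lymphocyte markers to 0.0422 to 0.708 over all libraries with Cd3e and Cd3g at 3 counts or fewer.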

Additional observations from a re-analysis of the deposited data

How the results depend on the processing

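The number of the 7 genes that passed under TGF-β1 in control was 2, and it was 1 with DESeq2 on 6 libraries, DESeq2's size factors, no filter, each limma fit and the replicate block, and 0 with edgeR on 6 libraries. Under TGF-β1 in Smad7-KO it was 1, and it was 2 with DESeq2 and 3 with edgeR on 6 libraries, and 0 with both filtered limma fits, which drop the synthases. On Smad7 loss in unstimulated cells it was 1, and it was 0 with both fits on 6 libraries, DESeq2's size factors, no filter, unfiltered limma, the replicate block and the length trend removed. Leaving out 1 library gave 1 to 4, 1 to 2 and 0 to 4. The highest of each came without unstimulated control library 3. On Smad7 loss in stimulated cells and for the interaction the count was 0 under every alternative run.

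Over all genes, TGF-β1 in control gave 1268 calls, 391 with edgeR on 6 libraries, 2204 with the length trend removed and 825 to 3449 without 1 library. TGF-β1 in Smad7-KO gave 1550, 3581 with DESeq2 and 3792 with edgeR on 6 libraries, 2468 with the length trend removed, 2692 without library 2 of both control conditions and 985 to 2535 without 1 library. Smad7 loss in unstimulated cells gave 3907, 2578 and 660 with DESeq2 and edgeR on 6 libraries, 2390 with unfiltered limma and 1535 to 7979 without 1 library. Smad7 loss in stimulated cells gave 1962, 2975 with DESeq2, 4849 and 4453 with DESeq2 and edgeR on 6 libraries, 3514 with the length trend removed and 883 to 4465 without 1 library. The interaction gave 3, 16 with DESeq2, 0 with limma and with the replicate block, 8 with the length trend removed and 0 to 6 without 1 library.

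Among the further hyaluronan genes, the 4 calls under TGF-β1 in control became 8 with DESeq2 and 11 with the length trend removed, and the 6 in Smad7-KO became 14 on 6 libraries by either tool, 3 with unfiltered limma and 13 without library 2 of both control conditions. The 14 on Smad7 loss in unstimulated cells became 9 and 1 on 6 libraries (DESeq2, edgeR), and the 9 in stimulated cells became 20, 17 and 14 with DESeq2 and edgeR on 6 libraries and without library 2 of both control conditions. Ranges without 1 library were 3 to 15, 3 to 13, 3 to 20 and 1 to 18.

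The Has2 share differences of 12.3, 24.6, −11.4 and 0.866 points ran from 2.88 to 17.98, 19.7 to 29.8, −20.9 to −5.78 and −4.03 to 5.40 without 1 library.

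Signs turned only in values that passed neither way. On Smad7 loss, Has2 was −0.0811 in unstimulated cells with the length trend removed and −0.0647 in stimulated cells without library 2 of both control conditions. Under these settings Hyal2 was 0.117 and 0.107 and Cd44 −0.104 and −0.0595 in stimulated cells, and Cd44 was −0.0214, −0.0219 and −0.0214 in the limma fits. In the interaction Has2 was 0.0841 with the length trend removed, Has3 0.0796 without library 2 of both control conditions, and Tnfaip6 −0.0198, −0.00488, −0.0198, −0.0149 and −0.0116 in the limma fits, with the length trend removed and without library 2 of both control conditions. Without 1 library, signs turned on Smad7 loss in stimulated cells for Has1 (−0.60 to 0.25), Has2 (−0.10 to 0.36), Hyal1 (−0.264 to 0.0939), Hyal2 (−0.14 to 0.11) and Cd44 (−0.0545 to 0.103), in unstimulated cells for Has1 (−0.0549 to 1.12) and Has2 (−0.31 to 0.36), under TGF-β1 for Has3 (−0.55 to 0.57) and Hyal1 (−0.43 to 0.38) in control and Hyal2 (−0.0996 to 0.0188) in Smad7-KO, and in the interaction for Has2 (−0.31 to 0.35), Has3 (−0.98 to 0.15) and Tnfaip6 (−0.0850 to 0.20). The cause was not tested.

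Replicate numbers did not pair the libraries: 18 same-numbered pairs correlated at −0.357 to 0.524 (median 0.0241), 1 of them over 0.1. With the replicate block Cd44 gave 0.50 (adjusted p = 0.0785) and 0.40 (adjusted p = 0.0696), and all-gene counts were 1107, 1323, 3222 and 1625. Counts of 4 to 82 for the synthases limit what could be seen of them, and 3 libraries per condition limit every comparison.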
